A study of Mus musculus with 9 samples.

Results

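The comparison set tumours of aged, calorie-restricted mice against tumours of young mice that ate freely. The members were chosen by depth alone: every gene with at least 10 counts in 3 or more of the 9 libraries, which 8956 of the 25361 genes in the count table (35.3%) reached. The aged restricted group held 3 libraries from mice of 20 months that were given 70% of the intake of freely fed mice for a long period. The aged ad libitum group held 3 libraries from freely fed mice of 20 months, and entered the model and the side-by-side values only. The young ad libitum group held 3 libraries from freely fed mice of 5 months. All mice were wild-type C57BL/6N males that carried MC38 tumours under the skin for 21 days, and MC38 is a mouse colon carcinoma cell line. The RNA came from cells of the digested tumour that were bound by CD8a magnetic beads, after lysis of red blood cells. Restricted mice of 5 months were not among the 9 libraries, so age and diet cannot be told apart in the main comparison. The labels call the replicates biological and do not say whether a library is 1 mouse, and p-values measure the spread between these libraries.

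Library totals ran from 1091933 to 1258575 counts in the restricted group, from 810662 to 908514 in the aged ad libitum group and from 1212238 to 1232975 in the young group. Mitochondrially encoded genes took 35.6% ± 11.2 of the counts in restricted libraries, 36.7% ± 5.74 in aged ad libitum libraries and 35.6% ± 3.2 in young libraries (SD, n = 3 each). Restricted replicate 2 stood apart from its group, with a mitochondrial share of 23.53% against 45.67% and 37.71% in replicates 1 and 3. Its TMM scaling factor (a correction for differences in composition between libraries) was 1.23, against 0.836 and 0.994 in the other restricted libraries. The labels name the cells tumour-infiltrating CD8 T cells. In the 9 libraries, the 20 T cell identity genes summed to between 212.5 and 769.4 CPM and the 24 monocyte and macrophage genes to between 2771.1 and 11776.4 CPM, and 3′ libraries count about 1 tag a transcript whatever its length. The libraries therefore held RNA of other cells beside T cells, and differences below are differences of this mixture. Levels below are CPM (counts scaled to 1000000 in a library) after TMM scaling for single genes, and CPM of the plain library total summed over the members for gene lists.

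CD8 T cells recognise tumour peptides on MHC class I and kill through perforin and granzymes. Macrophages of a tumour clear debris through complement, scavenger and Fc receptors, and cytokines of the type 2 response bring some of them to a state known as alternative activation, marked by Mrc1, Cd163 and Chil3. Heat shock chaperones hold and refold damaged proteins, and the transcription factor HSF1 raises their genes within minutes of heat or other protein stress. Long-term caloric restriction is known for lower insulin and insulin-like growth factor signals.

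Genes of macrophages rose, as did genes of skin and red blood cells, and heat shock chaperones fell, as did some genes of lipid synthesis and of the ribosome. The 3 skeletal muscle genes called higher all reached 10 counts in restricted libraries only, so that the filter set their direction. In all 177 of 8956 genes passed the threshold of 0.05 (1.98%; edgeR quasi-likelihood test, p adjusted after Benjamini and Hochberg), of which 102 (1.14%) rose and 75 (0.837%) fell in restricted mice. The change was at least 1 on the log2 scale for 96 of the genes that rose and 45 of those that fell. Of all genes tested, 875 (9.77%) had every restricted library above every young library and 821 (9.17%) had every restricted library below, and so did 101 of the 102 that rose and 75 of the 75 that fell. The median log2 fold change of all genes tested was 0.02. The filter let in 42 genes that reached 10 counts in restricted libraries only, of which 14 were called higher, and 8 that reached it in young libraries only, of which 0 were called lower. The number of calls moved with the library left out. It was 100, 232 and 100 without restricted replicates 1, 2 and 3, and 112, 93 and 109 without young replicates 1, 2 and 3. Without aged ad libitum replicates 1, 2 and 3 it was 207, 204 and 137. Leaving out a library also takes power from the test, so a lower number does not show that a lone library carried the calls. With scaling by library totals alone 115 genes were called, 79 higher and 36 lower, in place of 102 and 75.

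**Figure D1:**
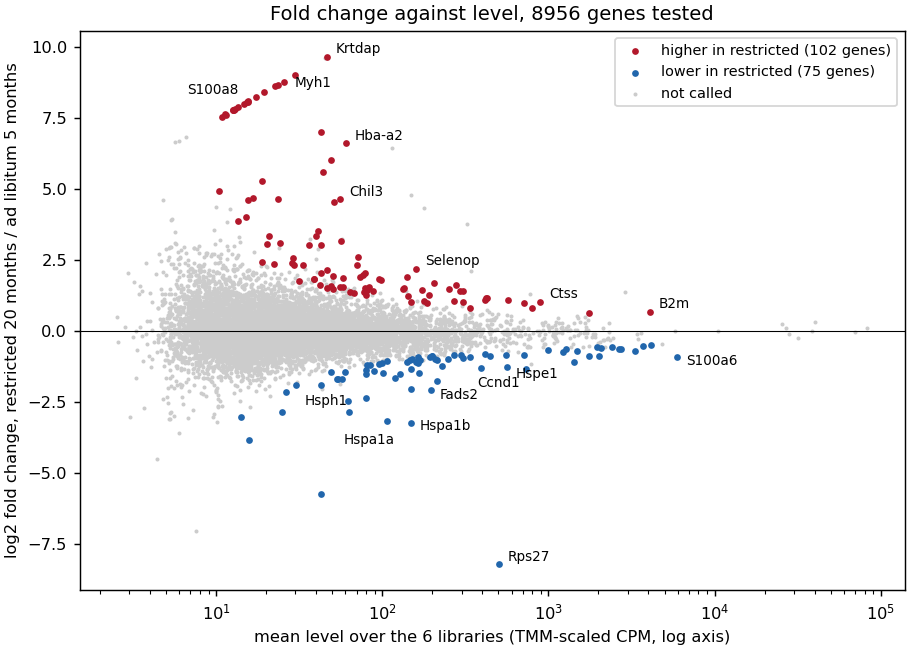
Each point is 1 of the 8956 genes tested, with its mean TMM-scaled CPM over the 6 libraries on a log axis and its fitted log2 fold change, aged restricted over young ad libitum. The 102 genes that rose (red) include a line of genes near the top left with 0 counts in the young libraries, and the 75 that fell (blue) reach down to Rps27, whose value is uncertain.

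Macrophage genes were higher in restricted than in young mice across most of their list. The monocyte and macrophage list summed to 11776, 10464 and 11271 CPM in restricted libraries, 7625, 2771 and 4825 CPM in aged ad libitum libraries and 5133, 5485 and 5064 CPM in young libraries. All 3 restricted libraries lay above all 3 young libraries, at about the same level, while the aged ad libitum libraries were widely spread. The exact 2-sided permutation test of restricted against young gave p = 0.1, the smallest that 3 libraries against 3 can give. Of the 24 members 10 rose and 0 fell, and 23 had a higher fitted level, with a median log2 fold change of 1.21. Cd163, 1 of the 10, reached 10 counts in restricted libraries only, so that the filter set its direction. Of the other 23 members 9 rose, against a background of 1.14% of genes called higher. In 18 of the 24, Cd163 among them, the 2 groups did not overlap, against 9.77% of all genes. In bulk RNA, fewer cells of a type and less RNA per cell cannot be told apart.

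Ctss, a lysosomal protease that prepares antigen for MHC class II, had 1508, 938 and 1158 CPM in restricted libraries against 610, 613 and 543 CPM in young libraries, and rose by 1.03 ± 0.21 on the log2 scale (SE, edgeR adjusted p = 0.00582). The young libraries were close together and the restricted ones spread above them. C1qc and C1qa, chains of the complement recognition molecule C1q, rose by 1.11 ± 0.26 and 0.80 ± 0.22 on the log2 scale (edgeR adjusted p = 0.0206 and 0.0497), and the third chain, C1qb, had 0.74 ± 0.26 without passing (edgeR adjusted p = 0.186). Csf1r, the receptor for the main macrophage growth factor, rose by 1.01 ± 0.22 (edgeR adjusted p = 0.00805). Cd14, a co-receptor for bacterial lipopolysaccharide, rose by 1.97 ± 0.40, Cd68, a lysosomal membrane protein, by 1.37 ± 0.34, and Ccr2, the receptor that draws monocytes from blood, by 1.57 ± 0.42 (edgeR adjusted p = 0.00425, 0.0267 and 0.0478). Cx3cr1, the fractalkine receptor, was the 1 member with a lower fitted level (-0.18 ± 0.24, edgeR adjusted p = 0.871). Apoe, a lipid carrier, and Lyz2, lysozyme, had fitted values of 1.39 ± 0.33 and 1.32 ± 0.60 and did not pass (edgeR adjusted p = 0.0927 and 0.477). Of 14 genes of lipid-associated macrophages edgeR called 0, with 9 higher and 1 lower at an unadjusted p under 0.05, while DESeq2 called Apoe, Gpnmb and Trem2 higher. The count of 10 fell to 2 without restricted replicate 1, 6 without restricted replicate 3, and 6, 5 and 4 without young replicates 1, 2 and 3.

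Alternative activation genes showed the larger fold changes among macrophage genes, from low levels. The fit placed all 10 tested members higher in restricted mice and 5 rose, at a median log2 fold change of 4.72, or 4.49 when the 2 members at 0 counts in young mice were set at their bound. Cd163, 1 of the 5, reached 10 counts in restricted libraries only, so that the filter set its direction. Of the other 9 tested members 4 rose, against a background of 1.14% of genes called higher. The list summed to 1474, 881 and 778 CPM in restricted libraries, 426, 68.4 and 239 CPM in aged ad libitum libraries and 129, 48.7 and 48.7 CPM in young libraries. Every restricted library was above every other library. Chil3, a chitinase-like secreted protein, had 126, 39 and 180 counts in restricted libraries, 11, 1 and 5 in aged ad libitum libraries and 8, 1 and 6 in young libraries. The groups did not overlap, and Chil3 rose by 4.64 ± 0.73 against young mice (edgeR adjusted p = 0.00118) and by 4.02 against aged ad libitum mice (edgeR adjusted p = 0.00684). Cd163, the scavenger receptor for haemoglobin bound to haptoglobin, had 91, 44 and 14 counts in restricted libraries, 0, 0 and 6 in aged ad libitum libraries and 0 in all 3 young libraries, at least 50.1-fold higher in restricted than in young mice. Mrc1, the mannose receptor, rose by 2.40 ± 0.60 (edgeR adjusted p = 0.0295), and had 63, 70 and 34 counts in restricted libraries against 20, 12 and 1 in young libraries. F13a1, a coagulation transglutaminase of resident macrophages, had 149, 72 and 57 counts in restricted libraries against 0, 6 and 0 in young libraries, and Folr2, a folate receptor, had 37, 9 and 16 against 0, 2 and 0. Both rose (edgeR adjusted p = 0.0499 and 0.038), each close to the threshold. Retnla, a resistin-like protein, was a member that did not pass: it had 21, 125 and 11 counts in restricted libraries and 16, 13 and 21 in young libraries, which overlap, and 0 in all 3 aged ad libitum libraries. Arg1, which breaks down arginine, had 478, 294 and 342 counts in restricted libraries and 55, 2 and 3 in young libraries, without passing (4.35 ± 1.25, edgeR adjusted p = 0.226). The count of 5 was 3 without restricted replicate 1, 3 without restricted replicate 3 and 2 without young replicate 3.

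**Figure D2:**
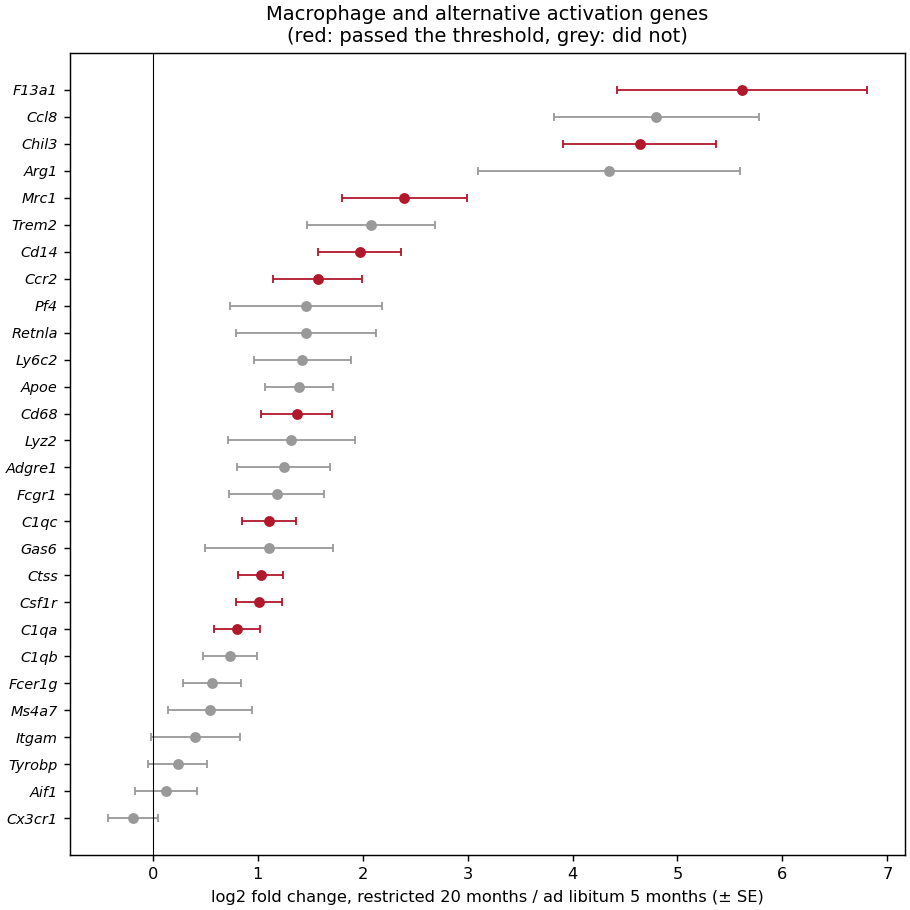
Fitted log2 fold change with its SE, aged restricted over young ad libitum, for tested genes of the macrophage and alternative activation lists with more than 3 counts in the young libraries. Genes that passed the threshold are red, and all genes but Cx3cr1 lie to the right of 0.

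Other gene groups of macrophage work had a minority of members called, all of them higher, against a background of 1.14% of genes called higher. Of 23 lysosome and cathepsin genes 4 rose: Lgmn, an asparagine-specific protease, by 1.53 ± 0.28, Ctsb by 1.17 ± 0.22, Ctss as above and Lamp1, a lysosomal membrane protein, by 0.83 ± 0.21 (edgeR adjusted p = 0.00167, 0.00268, 0.00582 and 0.0362). Of 8 Fc gamma receptor and adaptor genes, which bind antibody and signal, Fcgr3, Fcgr4 and the inhibitory Fcgr2b rose, by 1.78 ± 0.36, 1.86 ± 0.39 and 1.55 ± 0.41 (edgeR adjusted p = 0.00407, 0.00688 and 0.0434). All 8 had a higher fitted level. Fcgr4 had 99, 124 and 96 counts in restricted libraries, 17, 9 and 17 in aged ad libitum libraries and 20, 44 and 27 in young libraries, with no overlap between restricted and other mice. Of 16 chemokine genes 3 rose: Ccl9 by 3.19 ± 0.53, Ccl4 by 1.85 ± 0.35 and Ccl3 by 2.06 ± 0.46 (edgeR adjusted p = 0.000766, 0.00265 and 0.0149), all of which draw leukocytes. Ccl2, which draws monocytes through Ccr2, had 0.59 ± 0.24 without passing (edgeR adjusted p = 0.279). Of 10 inflammatory cytokine genes Il1b alone rose, and it had 342, 602 and 316 CPM in restricted libraries, 283, 118 and 245 CPM in aged ad libitum libraries and 109, 149 and 156 CPM in young libraries. The restricted libraries were all above the 6 others, by 1.61 ± 0.29 on the log2 scale against young mice (edgeR adjusted p = 0.00245).

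Antigen presentation genes mostly did not pass. Cd74, the invariant chain that guides MHC class II, had 1113, 1000.5 and 718 CPM in restricted libraries, 452, 234 and 440 CPM in aged ad libitum libraries and 503, 436 and 480 CPM in young libraries, and rose by 1.00 ± 0.21 against young mice (edgeR adjusted p = 0.00805). The chains H2-Aa, H2-Ab1 and H2-Eb1 did not pass, with fitted values of 0.22, 0.20 and 0.01 against young mice and 1.08, 0.91 and 0.97 against aged ad libitum mice, where all 3 passed (edgeR adjusted p = 0.00479, 0.00927 and 0.0129; 0.748% of genes were called higher in that comparison). The same restricted libraries serve both comparisons. B2m, the light chain of MHC class I, had 4978, 5421 and 4685 CPM in restricted libraries against 3046, 3292 and 3077 CPM in young libraries, and rose by 0.68 ± 0.13 (edgeR adjusted p = 0.00273). It was the 1 of 15 MHC class I genes called, against a background of 1.14% of genes called higher. Mx1, an antiviral GTPase, was the 1 of 28 interferon-stimulated genes called, against the same background (3.07 ± 0.65, edgeR adjusted p = 0.00644). Mx1 had 38, 28 and 55 counts in restricted libraries, 14, 28 and 17 in aged ad libitum libraries and 6, 2 and 7 in young libraries.

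**Figure D3:**
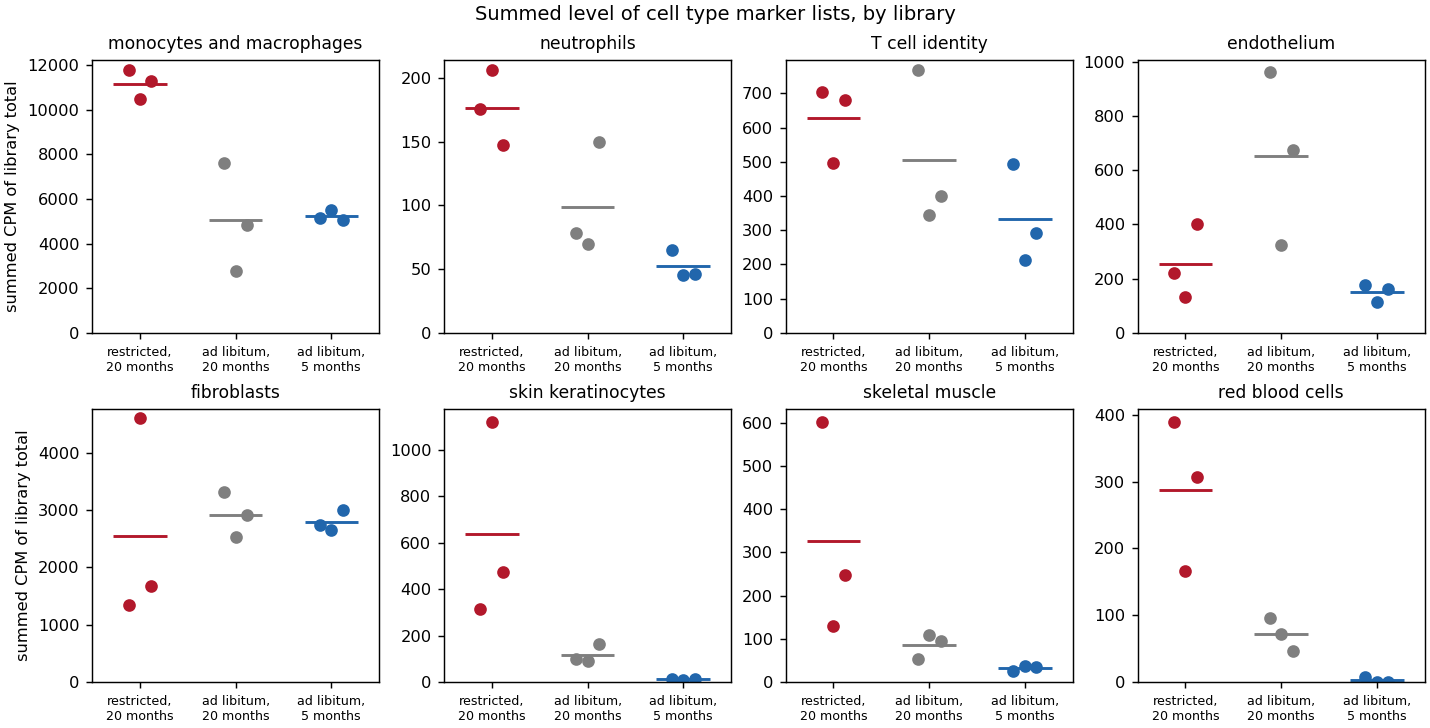
Summed CPM of 8 cell type marker lists in each of the 9 libraries (points), with the group mean as a line, aged restricted at left, aged ad libitum in the middle and young ad libitum at right. Macrophage, neutrophil, T cell, skin, muscle and red blood cell lists have all 3 restricted libraries above all 3 young ones, the T cell list by a few CPM only. The endothelial list has its highest mean in the aged ad libitum group.

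T cell genes, the labelled cell type, were present in every group and none passed. All 20 T cell identity genes had a count in each group, and their sum was 704, 497 and 681 CPM in restricted libraries, 769, 343 and 401 CPM in aged ad libitum libraries and 493, 212 and 292 CPM in young libraries (exact permutation p = 0.1 for restricted against young, the smallest possible). The lowest restricted library was above the highest young library by a few CPM. The fit placed all 18 tested members higher in restricted mice, at a median log2 fold change of 1.50. In 5 the groups did not overlap, against 9.77% of all genes with restricted libraries above. Cd247, 1 of these 5, reached 10 counts in restricted libraries only, so that the filter set its direction. By edgeR 0 of the 18 were called, with 5 at an unadjusted p under 0.05, and by DESeq2 0 were called. Cd8a, the target of the beads, had 47, 51 and 53 counts in restricted libraries, 59, 4 and 32 in aged ad libitum libraries and 54, 11 and 5 in young libraries. After TMM scaling the restricted libraries had 51.5, 33.1 and 46.6 CPM and the young libraries 44.1, 8.74 and 4.37 CPM, which overlap through young replicate 1, and the log2 fold change of 1.18 ± 0.75 did not pass (edgeR adjusted p = 0.624). Cd8b1, its partner chain, had 1.50 ± 1.04, and the CD3 chains Cd3d, Cd3e and Cd3g had 1.51 ± 0.46, 1.79 ± 0.77 and 1.61 ± 1.17 (edgeR adjusted p = 0.113 to 0.691 over these 4 genes).

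Cytotoxic and inhibitory genes of T cells had no calls. Of 17 cytotoxic effector genes 0 were called by edgeR, 1 at an unadjusted p under 0.05, at a median log2 fold change of 0.55. Of 7 inhibitory receptor and exhaustion genes 0 were called by edgeR, 2 at an unadjusted p under 0.05, at a median of 0.96, and DESeq2 also called 0 in both lists. Gzmb, a granzyme, had 66, 28 and 48 counts in restricted libraries and 42, 12 and 9 in young libraries, and Prf1, perforin, had 15, 18 and 9 against 28, 10 and 13. Both pairs of groups overlap. Ifng, the cytokine interferon gamma, had 2, 23 and 13 counts in restricted libraries and 8, 0 and 1 in young libraries. Pdcd1, the checkpoint receptor PD-1, had 40, 22 and 49 counts in restricted libraries against 25, 2 and 6 in young libraries. None of these 4 passed, with edgeR adjusted p between 0.541 and 0.97. Klrk1, the activating receptor NKG2D, had 60, 21 and 18 counts in restricted libraries, 3, 3 and 1 in aged ad libitum libraries and 42, 20 and 18 in young libraries. Its fitted change was 0.50 ± 0.62 against young mice (edgeR adjusted p = 0.858) and 3.46 against aged ad libitum mice, where it rose (edgeR adjusted p = 0.022).

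Genes of the epidermis were near 0 in young mice and present in every restricted library. The keratinocyte list summed to 312, 1120 and 475 CPM in restricted libraries, 96.9, 90.4 and 165 CPM in aged ad libitum libraries and 12.3, 9.73 and 12.4 CPM in young libraries. Of the 17 list genes 14 were deep enough to test, and 6 of them reached 10 counts in restricted libraries only, which set their direction. Of the other 8, 7 rose, against a background of 1.14%, and 4 of the 6 were called higher too. In all 14 the groups did not overlap. For the 6 this followed largely from the filter, so only the other 8 can be set against 9.77% of all genes. By group, 12 of the 17 list genes had 0 counts in all young libraries, among them Krt5, Krt14, Krt1 and Dsp. The median log2 fold change was 5.14 with such members at their bound. Lgals7, a galectin of stratified epithelium, had 63, 206 and 60 counts in restricted libraries, 7, 16 and 19 in aged ad libitum libraries and 2, 0 and 0 in young libraries, a ratio of 166 to young mice (95% counting interval 45.6 to 1377). Krt10, a keratin of the upper epidermis, had 63, 230 and 87 counts in restricted libraries, 10, 11 and 25 in aged ad libitum libraries and 1, 8 and 6 in young libraries, and rose by 4.54 ± 0.57 (edgeR adjusted p = 1.79e-05). Krtdap, a keratinocyte differentiation gene, was at least 119-fold higher in restricted than in young mice, and Krt14 and Krt5, the basal keratins, at least 53.2-fold and at least 43.1-fold. Restricted replicate 2 had the highest keratinocyte sum, and without it 6 of the 14 were called. The part of skin, muscle and blood transcripts in the other differences was not tested.

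Muscle and red blood cell genes were also highest in restricted and lowest in young libraries. The skeletal muscle list summed to 603, 130 and 248 CPM in restricted libraries, 53.9, 109 and 93.8 CPM in aged ad libitum libraries and 24.6, 36.5 and 33.8 CPM in young libraries, highest in restricted replicate 1. Of 6 tested members 3 were called higher, and all 3 reached 10 counts in restricted libraries only, so that the filter on low counts set their direction. They were Myh1, a fast myosin heavy chain, at least 53.8-fold, Trdn, triadin of the calcium release complex, at least 47.5-fold, and Tnnc2, fast troponin C, at least 24.2-fold, all at 0 counts in young mice. Tnnc2 overlaps Ube2c on the other strand in the file's annotation. The red blood cell list summed to 389, 166 and 306 CPM in restricted libraries, 95.8, 72.1 and 45.6 CPM in aged ad libitum libraries and 7.37, 0 and 0 CPM in young libraries, although red cells had been lysed. All 4 tested globin genes were called higher, of which Hbb-bt reached 10 counts in restricted libraries only. The other 3 stand against a background of 1.14% of genes called higher. Because Hba-a1 with Hba-a2 and Hbb-bs with Hbb-bt are near-identical, their sums were also tested, and both rose, by 7.19 ± 0.67 and 6.34 ± 0.74 (edgeR adjusted p = 1.03e-06 and 2.86e-05).

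Neutrophil genes were sparse. S100a8 and S100a9, which together form the alarmin calprotectin, had 48, 15 and 48 and 36, 33 and 23 counts in restricted libraries and 0 in every young library, so that S100a8 was at least 37.4-fold and S100a9 at least 31.0-fold higher in restricted mice. S100a9 reached the minimum count of the filter in restricted libraries only, so that the filter set its direction. In aged ad libitum libraries S100a8 had 18, 5 and 18 counts and S100a9 had 8, 0 and 8. The other 4 tested neutrophil genes were not called, and Camp and Ngp, granule genes of neutrophils, were at 0 in all restricted and all young libraries. Keratinocytes are also known to make S100a8 and S100a9, the keratinocyte sum was higher in restricted than in young libraries as well, and its part in the result was not tested. Endothelial genes had 0 of 13 called against young mice by edgeR and by DESeq2, 3 at an unadjusted p under 0.05, with a sum of 222.5, 133 and 403 CPM in restricted libraries, 964, 323 and 676 CPM in aged ad libitum libraries and 175, 115 and 161 CPM in young libraries. Fibroblast genes summed to 1349, 4595 and 1679 CPM in restricted libraries against 2740, 2659 and 2993 CPM in young libraries. Restricted replicate 2 was the highest and the other restricted libraries the lowest, so the groups overlap. B cell, mast cell and colon epithelium lists had 0 members deep enough to test.

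Early response genes and genes of hormone or fasting signals were partly higher. Of 22 immediate-early genes, which cells switch on within minutes of a signal, 4 rose, against a background of 1.14%: Fosb by 1.41 ± 0.24, Dusp1 by 1.45 ± 0.28, Fos by 1.04 ± 0.22 and Ier3 by 1.47 ± 0.35 (edgeR adjusted p = 0.000911, 0.00272, 0.00595 and 0.0353). Fosb, a partner in the AP-1 transcription factor, had 560, 259.5 and 520 CPM in restricted libraries, 388, 477 and 489 CPM in aged ad libitum libraries and 167, 139 and 197 CPM in young libraries. Both aged groups were above the young one, and the fitted change was -0.02 between restricted and aged ad libitum mice (edgeR adjusted p = 0.987) and 1.43 between aged ad libitum and young mice (edgeR adjusted p = 0.00557). Jun, the other main AP-1 partner, had -0.10 ± 0.185 without passing (edgeR adjusted p = 0.924). Of 18 genes that glucocorticoids or fasting are known to induce, Hp, Cebpb, Dusp1 and the kinase gene Sgk1 rose. The metallothionein gene Mt2 fell, against 0.837% of genes called lower. Hp reached 10 counts in restricted libraries only, so that the filter set its direction. Of the other 17 tested members 3 rose, against the same background of 1.14%. Hp, haptoglobin, which captures free haemoglobin, had 48, 20 and 52 counts in restricted libraries, 6, 0 and 0 in aged ad libitum libraries and 0, 2 and 1 in young libraries, a ratio of 40.4 to young mice (95% counting interval 13.5 to 199). Fkbp5, the glucocorticoid target most used as a marker, had 71, 52 and 109 counts in restricted libraries against 22, 11 and 37 in young libraries, just short of the threshold (1.80 ± 0.49, edgeR adjusted p = 0.0522). Dusp1 and Cebpb each overlap a less abundant gene on the other strand in the file's annotation, and use of strand in the counting is not stated.

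Of 22 tested antioxidant and selenoprotein genes Selenop and Gpx3 rose, against a background of 1.14%. Selenop, the plasma carrier of selenium, had 410, 203 and 173 CPM in restricted libraries, 84.5, 53.2 and 56.1 CPM in aged ad libitum libraries and 72.7, 42.1 and 55.0 CPM in young libraries. Every restricted library exceeded all 6 others, and Selenop rose by 2.20 ± 0.32 against young mice (edgeR adjusted p = 0.000175) and by 2.00 against aged ad libitum mice (edgeR adjusted p = 0.00153). Gpx3, a glutathione peroxidase of plasma, had 80, 152 and 47 counts in restricted libraries, 8, 5 and 8 in aged ad libitum libraries and 18, 26 and 18 in young libraries, and rose by 2.15 ± 0.45 against young mice (edgeR adjusted p = 0.00595). The other 20 tested antioxidant and selenoprotein genes were not called, Sod1, Sod2 and Cat among them, with fitted values of -0.08, 0.09 and -0.16. Sod3, the extracellular superoxide dismutase of the same list, was at 0 in all restricted libraries and too sparse to test.

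Heat shock chaperones were the list with the largest share of falls. Of 24 cytosolic and mitochondrial heat shock genes 9 fell and 0 rose, against a background of 0.837% called lower, and 22 had a lower fitted level, at a median of -0.74. In 16 the restricted libraries lay below all young ones, against 9.17% of all genes. The list summed to 4580, 6860 and 6127 CPM in restricted libraries, 6560, 6688 and 6977 CPM in aged ad libitum libraries and 9254, 9583 and 9818 CPM in young libraries (exact permutation p = 0.1 for restricted against young, the smallest possible). HSF1 binds inverted repeats of GAA, and the letters GAANNTTC (N is any base; the motif reads the same on both strands) were searched in the RefSeq promoters of GRCm38.p6, from 250 bases before to 50 after the start. The motif was in 6 of the 7 fallen heat shock genes that the table holds (85.7%), in 6.75% of the 7167 tested genes with a promoter in it and in 9.04% of all its genes. Of all fallen genes with a promoter, these 7 included, 7 of 60 (11.7%) held it. Heat shock genes that did not fall were not counted apart, so these shares cannot tie the motif to the fall. The other orientation, TTCNNGAA, was in 2 of the 7 (28.6%) and in 8.01% of the tested genes. The longer form GAANNTTCNNGAA, which contains both, was in 2 of the 7 and 0.53% of the tested genes. A match is a description of letters and not of binding. The 250 bases before the start of 3 of these genes, with the motif in capitals, show how it is placed 104, 84 and 151 bases before the start.
Hspa1a promoter (chr17:34972157-34972406, minus strand, GRCm38.p6): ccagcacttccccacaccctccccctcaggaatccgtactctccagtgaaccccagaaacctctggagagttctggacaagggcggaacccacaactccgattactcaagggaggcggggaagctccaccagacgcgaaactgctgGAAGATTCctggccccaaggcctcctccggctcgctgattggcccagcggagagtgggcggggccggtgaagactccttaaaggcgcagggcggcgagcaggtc
Hspe1 promoter (chr1:55087898-55088147, plus strand, GRCm38.p6): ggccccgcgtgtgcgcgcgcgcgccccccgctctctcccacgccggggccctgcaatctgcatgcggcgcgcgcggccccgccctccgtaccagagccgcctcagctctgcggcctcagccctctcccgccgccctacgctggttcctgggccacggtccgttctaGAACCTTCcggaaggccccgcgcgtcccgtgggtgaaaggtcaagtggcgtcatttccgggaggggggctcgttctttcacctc
Fkbp4 promoter (chr6:128438657-128438906, minus strand, GRCm38.p6): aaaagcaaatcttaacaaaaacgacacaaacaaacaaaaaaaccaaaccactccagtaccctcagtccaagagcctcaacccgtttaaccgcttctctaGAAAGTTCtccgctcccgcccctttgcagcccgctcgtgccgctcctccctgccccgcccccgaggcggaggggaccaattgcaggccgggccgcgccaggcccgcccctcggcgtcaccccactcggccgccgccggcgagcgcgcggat
The Hspa1b promoter differed from that of Hspa1a at 3 of 250 bases (98.8% identical) and held the motif at the same place, so the 6 genes with the motif include a near-identical pair. In Hsph1 and Bag3 the match lay after the start, and Dnajb1 had none in the window.

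The largest falls of the list were as follows. Hspa1b, a stress-induced HSP70, had 32.9, 19.5 and 34.3 CPM in restricted libraries, 28.2, 46.5 and 45.1 CPM in aged ad libitum libraries and 251, 334 and 219 CPM in young libraries, a log2 fold change of -3.23 ± 0.32 against young mice (edgeR adjusted p = 5.67e-07). Its neighbour Hspa1a had 26.3, 24.7 and 14.1 CPM in restricted libraries, 8.05, 13.3 and 8.53 CPM in aged ad libitum libraries and 167, 251 and 161 CPM in young libraries. Every young library was several times above every aged library of either diet. Since reads of the pair could have been split, the sum was tested too and fell, with a log2 fold change of -3.20 ± 0.27 (edgeR adjusted p = 1.41e-08). Hsph1, an HSP110 that recharges HSP70, had 19.7, 24.7 and 33.4 CPM in restricted libraries, 24.2, 65.2 and 57.3 CPM in aged ad libitum libraries and 129, 139 and 133 CPM in young libraries (-2.36 ± 0.36, edgeR adjusted p = 0.000251). Dnajb1, an HSP40 that hands clients to HSP70, had 43.8, 55.2 and 74.7 CPM in restricted libraries, 72.5, 87.8 and 89.0 CPM in aged ad libitum libraries and 266, 239 and 208 CPM in young libraries (-2.03 ± 0.27, edgeR adjusted p = 4.86e-05). Bag3, a partner of HSP70 in autophagy, fell with a log2 fold change of -1.89 ± 0.43 (edgeR adjusted p = 0.0123). Between aged ad libitum and young mice Hspa1a, Hspa1b and Dnajb1 fell (-4.28, -2.75 and -1.52, edgeR adjusted p = 1.33e-07, 6.48e-06 and 0.00774), and Hsph1 and Bag3 did not pass (-1.46 and -1.12, edgeR adjusted p = 0.0628 and 0.293). Between restricted and aged ad libitum mice, which share libraries with both, the changes of these 5 genes, from -0.89 in Hsph1 to 1.13 in Hspa1a, did not pass (edgeR adjusted p = 0.24 to 0.627).

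The other 4 genes had smaller fold changes. Hspe1, the mitochondrial HSP10, had 341, 294 and 352 CPM in restricted libraries, 397.5, 496 and 405 CPM in aged ad libitum libraries and 934, 716 and 719 CPM in young libraries (-1.26 ± 0.19, edgeR adjusted p = 0.000186). Its divergent neighbour Hspd1, the HSP60 that works with it, had -0.78 ± 0.23 without passing (edgeR adjusted p = 0.0927), and the 2 genes overlap in the file's annotation. Hsp90aa1, Hsp90ab1 and the HSP90 co-chaperone Fkbp4 fell, with log2 fold changes of -0.89 ± 0.18, -0.55 ± 0.15 and -1.03 ± 0.25 (edgeR adjusted p = 0.00378, 0.0441 and 0.0242). Hspa8, the constitutive HSP70, had -0.02 ± 0.16 (edgeR adjusted p = 0.984), with 816, 1429 and 940 counts in restricted libraries against 1189, 1034 and 1029 in young libraries. Hsf1 itself had 0.03 ± 0.60. Endoplasmic reticulum chaperones, which answer to a different stress, had 0 of 20 called by edgeR, 1 at an unadjusted p under 0.05, and Hspa5, their main member, had -0.29 ± 0.18 (edgeR adjusted p = 0.611). The TRiC chaperonin had 0 of 8 called by edgeR, and 0 at an unadjusted p under 0.05. DESeq2 called 0 in both lists. The count of 9 heat shock genes ran from 6 to 10 when 1 library was left out and was 6 with scaling by library totals.

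**Figure D4:**
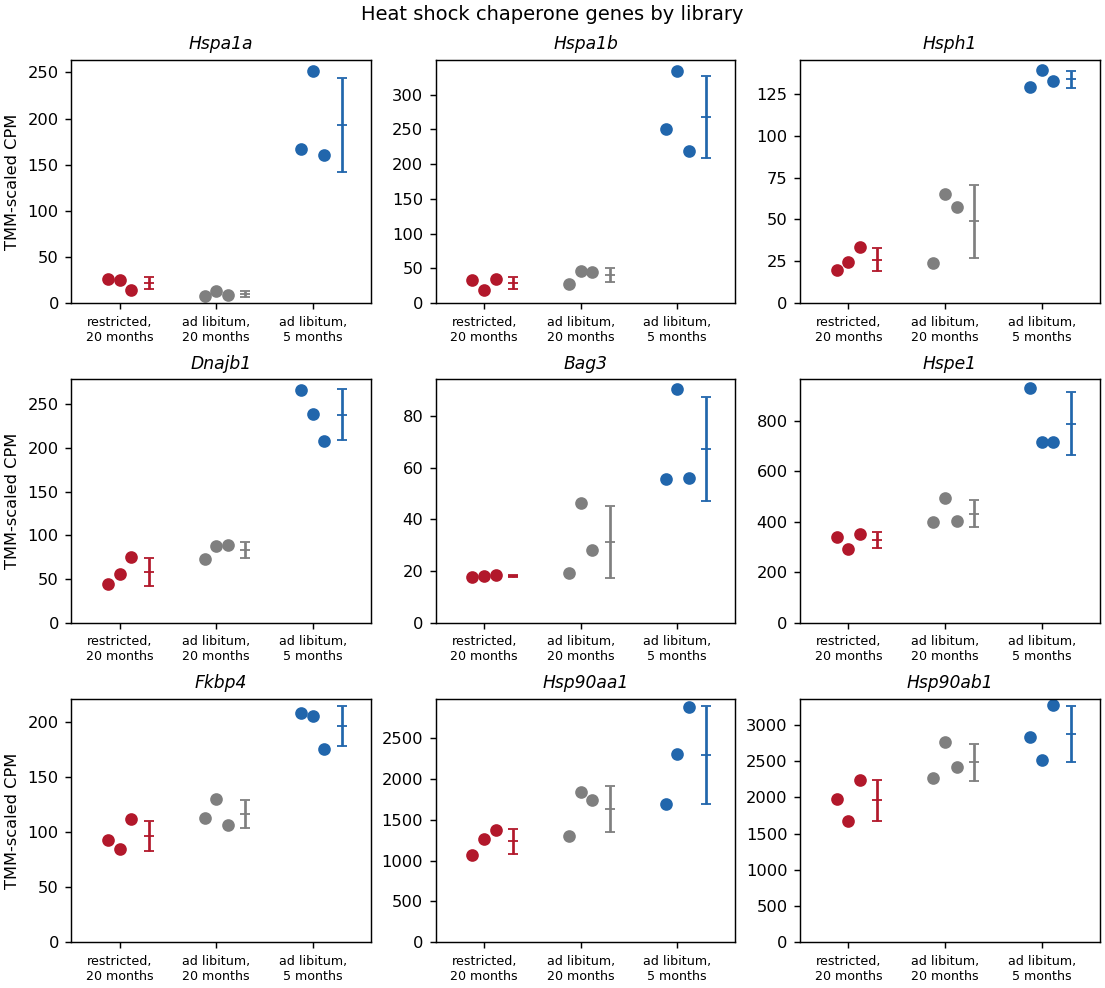
TMM-scaled CPM of the 9 heat shock genes that fell, 1 point per library with the mean and SD at its right, aged restricted at left, aged ad libitum in the middle and young ad libitum at right. In each panel the restricted libraries lie below the young ones, and for Hspa1a, Hspa1b and Dnajb1 the aged ad libitum libraries lie near the restricted ones.

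Genes of lipid synthesis were lower in restricted than in young mice, most of them short of the threshold. The median log2 fold changes of the fatty acid and cholesterol synthesis lists were -0.107 and -0.348 for restricted over aged ad libitum mice. For aged ad libitum over young mice they were -0.666 and -0.606. Of 13 fatty acid synthesis genes Fads2, Scd2 and Acsl3 fell, against a background of 0.837% of genes called lower. In 12 the fitted level was lower, against 4372 of the 8956 genes tested, and the median was -0.53. Fads2, the delta-6 desaturase of polyunsaturated fatty acids, had 83.2, 76.6 and 65.0 CPM in restricted libraries, 117, 198 and 151 CPM in aged ad libitum libraries and 305.5, 325 and 316 CPM in young libraries. The 3 groups did not overlap, with a log2 fold change of -2.07 ± 0.25 against young mice (edgeR adjusted p = 1.1e-05) and -1.05 against aged ad libitum mice (edgeR adjusted p = 0.0339). Scd2, a stearoyl-CoA desaturase, had a log2 fold change of -1.35 ± 0.29 (edgeR adjusted p = 0.00688), while Fasn, the fatty acid synthase, had -0.82 ± 0.27 without passing (edgeR adjusted p = 0.129). Acsl3, which activates fatty acids, fell (-1.70 ± 0.43, edgeR adjusted p = 0.0327). It shares its span and strand with Utp14b, which also fell, and their sum gave -2.04 ± 0.39 (edgeR adjusted p = 0.0029). Of 22 cholesterol synthesis genes 20 had a lower fitted level, at a median of -0.85. Cyp51, lanosterol demethylase, was the 1 that fell, against the same background of 0.837% (-1.21 ± 0.32, edgeR adjusted p = 0.0441). Cyp51 overlaps Akap9 on the other strand, whose total count is higher. Hmgcs1, an early enzyme of the pathway under control of the sterol sensor SREBP2, had -1.02 ± 0.34 without passing (edgeR adjusted p = 0.154). Of 20 genes of fatty acid oxidation and ketone use edgeR called 0, with 1 at an unadjusted p under 0.05, at a median of 0.32.

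A minority of the genes of protein synthesis, respiration and the cytoskeleton were called, all of them lower. Of 80 ribosomal protein genes 10 fell, against a background of 0.837%, at a median of -0.09 over the list, and 29 had restricted libraries below all young ones, against 9.17% of all genes. The 10 include Rps27, whose call is uncertain. Rpl23 had 2432, 3766 and 2777 counts in restricted libraries against 5217, 5014 and 4664 in young libraries (-0.71 ± 0.13, edgeR adjusted p = 0.00189). The 10 became 5 without restricted replicate 3, 3, 3 and 6 without young replicates 1, 2 and 3, and 2 with scaling by library totals. Rpl35 has a near-identical copy, Gm2000, and the sum of the pair had a log2 fold change of -0.68 ± 0.13 (edgeR adjusted p = 0.00268). Of 73 nuclear genes of the respiratory chain Cox6c and Cox8a fell, against the same 0.837% (-0.84 ± 0.17 and -0.67 ± 0.17, edgeR adjusted p = 0.0052 and 0.028). In 53 the fitted level was lower, against 4372 of the 8956 genes tested. Of 9 alpha- and beta-tubulin genes Tuba1a and Tuba1b, whose 3′ ends partly match, fell, against the same 0.837%. The sum of the Tuba1 genes fell as well (-0.72 ± 0.15, edgeR adjusted p = 0.00492). Tuba1b had 982, 703 and 1059 CPM in restricted libraries, 870, 622 and 791 CPM in aged ad libitum libraries and 1540, 1529 and 1535 CPM in young libraries, where the 3 values almost coincide.

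Ccnd1, the cyclin that drives cells out of G1, had 197, 279 and 211 CPM in restricted libraries, 318, 467 and 427 CPM in aged ad libitum libraries and 566, 608 and 505 CPM in young libraries. The 3 groups were fully separate and the log2 fold change against young mice was -1.29 ± 0.21 (edgeR adjusted p = 0.000415). Replication and mitosis genes had 0 of 26 and 0 of 29 called by edgeR, with 0 and 5 at an unadjusted p under 0.05, and Mki67, a mark of cycling cells, had -0.21 ± 0.25 (edgeR adjusted p = 0.855). S100a6, a calcium-binding protein of growing cells, had 4115, 3447 and 4728 CPM in restricted libraries and 8719, 8174 and 6509 CPM in young libraries, and fell (-0.93 ± 0.14, edgeR adjusted p = 0.000251). Of 21 collagen and basement membrane genes Sparc and Col8a1 fell, against a background of 0.837% of genes called lower. Sparc, a collagen-binding matrix protein, had 332, 414 and 438 CPM in restricted libraries, 1057, 702 and 694 CPM in aged ad libitum libraries and 730, 640 and 757 CPM in young libraries. It was low in restricted mice alone, with -0.84 ± 0.19 against young mice and -1.05 against aged ad libitum mice (edgeR adjusted p = 0.0122 and 0.00401). Psmd3 was the 1 of 33 proteasome genes that fell, against 0.837% of all genes (-0.92 ± 0.25, edgeR adjusted p = 0.0483).

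The largest fall of all, in Rps27, is uncertain. Rps27, a ribosomal protein of the small subunit, had 1, 9 and 2 counts in restricted libraries, 749, 448 and 180 in aged ad libitum libraries and 1580, 1606 and 515 in young libraries. The last 300 bases of its transcript are identical to those of Rps27rt, a copy that the file counts apart. The 2 together had 1525, 2163 and 1651 CPM in restricted libraries, 2243, 1825 and 2028 CPM in aged ad libitum libraries and 2507, 2333 and 1765 CPM in young libraries, which overlap, and the sum had a log2 fold change of -0.35 ± 0.14 (edgeR adjusted p = 0.282). 2 further calls ended in the same way when copies were summed, Eno1 with Eno1b (-0.45, edgeR adjusted p = 0.38) and the predicted gene Gm20390 with Nme1 and Nme2 (-0.31, edgeR adjusted p = 0.607). Among the genes that rose, Bcl2a1b with its copies had 0.50 and did not pass (edgeR adjusted p = 0.477), and Dynlt1b with its copies rose by 1.01 (edgeR adjusted p = 0.0383). Other large falls were in Med16, whose 3′ end holds a repeat shared with many genes, in the olfactory receptor gene Or2w1b, and in Gipc1, Rab13 and AU022252, with log2 fold changes of -2.46, -2.85, -3.03, -2.13 and -2.86.

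**Figure D5:**
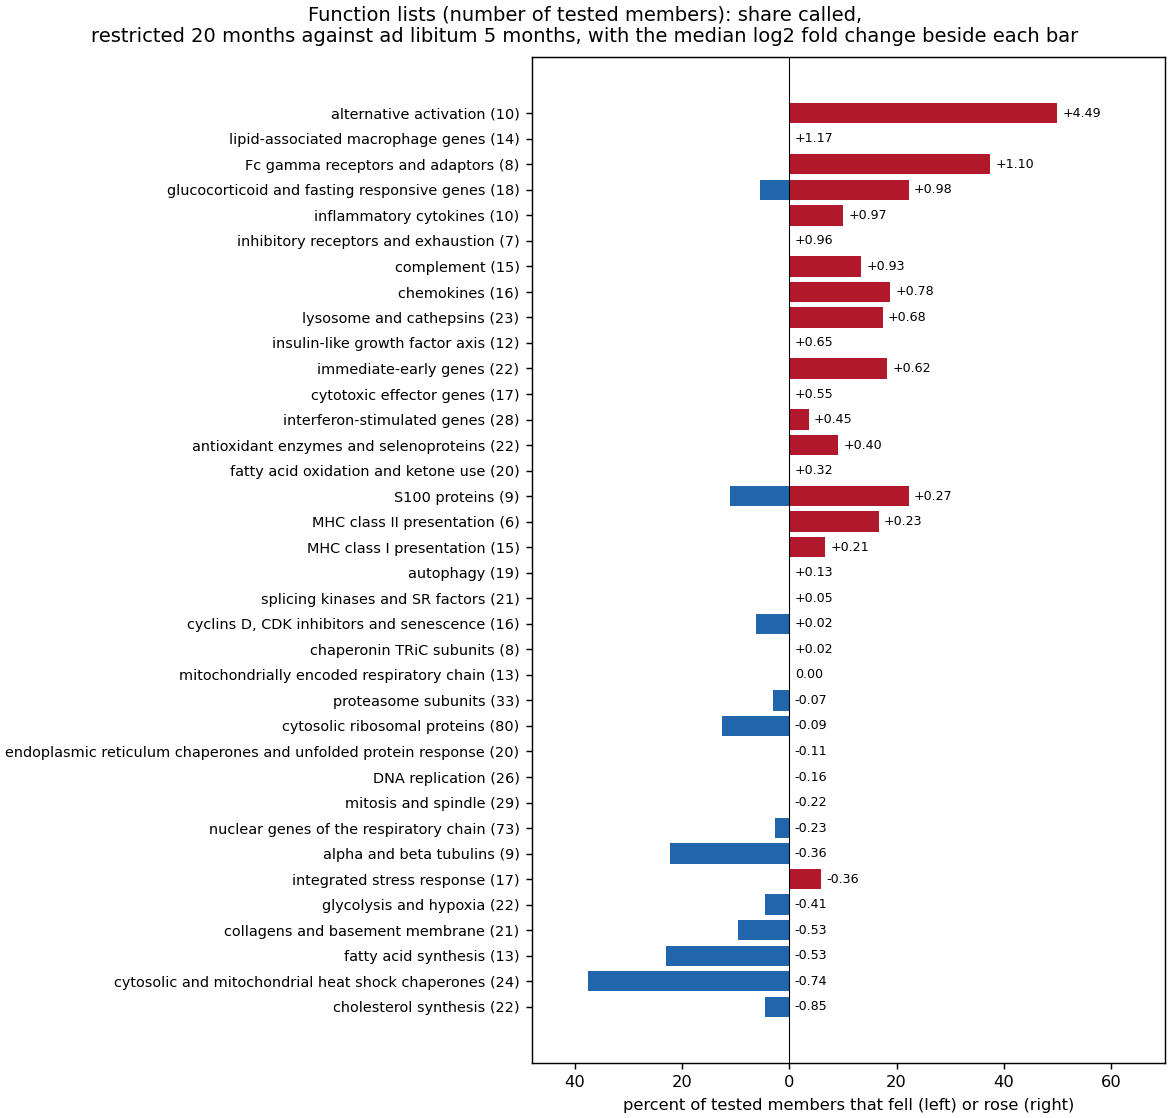
Share of the tested members of 36 function lists that fell (blue, left) or rose (red, right) in aged restricted against young ad libitum mice, ordered by the list's median log2 fold change, which is printed beside each bar with members at 0 counts in young mice set at their bound. The alternative activation list has the highest median (4.49) and the cholesterol synthesis list the lowest (-0.85), while the heat shock list has the largest share of members that fell.

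Of the called genes 47 that rose and 41 that fell were in none of the 53 lists, and those named here were chosen after their values were seen. Nlrp3, the sensor of the inflammasome that matures interleukin 1 beta, had 58, 23 and 65 counts in restricted libraries, 9, 9 and 25 in aged ad libitum libraries and 2, 0 and 4 in young libraries (4.65 ± 0.81, edgeR adjusted p = 0.000945). Ccrl2, a chemerin-binding receptor, rose by 3.54 ± 0.56 (edgeR adjusted p = 0.000376). The scavenger receptor Msr1 rose by 2.56 ± 0.53 and the beta-glucan receptor Clec7a by 1.46 ± 0.35 (edgeR adjusted p = 0.00582 and 0.0221). Acod1, which makes itaconate, was called higher by 3.88 ± 1.04 (edgeR adjusted p = 0.0441). Acod1 reached the minimum count of the filter in restricted libraries only, so that the filter set its direction. Tnfaip3 and Nfkbiz, which restrain or shape NF-kappa-B signals, rose by 1.85 ± 0.48 and 1.56 ± 0.41 (edgeR adjusted p = 0.0367 and 0.0401). Itm2b, a membrane protein, had 837, 718 and 795 CPM in restricted libraries, 398.5, 249 and 339 CPM in aged ad libitum libraries and 385.5, 326 and 382 CPM in young libraries. It was high in restricted mice alone, by 1.10 ± 0.20 against young mice and 1.25 against aged ad libitum mice (edgeR adjusted p = 0.00116 and 0.00153). Rbm3, the cold-induced RNA-binding protein, had 271, 410 and 283 counts in restricted libraries against 142, 157 and 108 in young libraries (1.27 ± 0.24, edgeR adjusted p = 0.00272).

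Among those that fell, Serpinh1, the collagen chaperone HSP47, had 37, 87 and 57 counts in restricted libraries, 59, 68 and 88 in aged ad libitum libraries and 187, 143 and 139 in young libraries (-1.39 ± 0.30, edgeR adjusted p = 0.00939). Mmp14, a membrane-bound matrix protease, Col16a1 and Col7a1, both collagens, had log2 fold changes of -0.81 ± 0.20, -1.48 ± 0.32 and -1.70 ± 0.37 (edgeR adjusted p = 0.0276, 0.00805 and 0.00934). Lgals1, a galectin made by many tumour and stromal cells, had 1135, 2498 and 1590 counts in restricted libraries against 2818, 3561 and 3016 in young libraries (-0.87 ± 0.15, edgeR adjusted p = 0.000766). Snrnp70, Snrpd1 and Prpf19, parts of the splicing machinery, fell with -0.99 ± 0.24, -1.01 ± 0.25 and -1.08 ± 0.26 (edgeR adjusted p = 0.0223, 0.0278 and 0.0236), while the list of splicing kinases and SR factors had 0 of 21 called by edgeR, and 1, Ccnl1, by DESeq2. Hnrnpa0, an RNA-binding protein, and Crabp1, which binds retinoic acid, fell with -1.35 ± 0.22 and -1.64 ± 0.28 (edgeR adjusted p = 0.000427 and 0.000794).

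Set beside the 2 comparisons that share libraries with it, the comparison of restricted with young mice had the most calls. Between restricted and aged ad libitum mice 93 genes (1.04%) were called, and between aged ad libitum and young mice 27 (0.301%). The aged ad libitum libraries were the shallowest, and the 3 comparisons share libraries, so the counts are not independent. For the macrophage list the median log2 fold change was 1.21 for restricted over young, 1.07 for restricted over aged ad libitum and 0.06 for aged ad libitum over young mice. For the heat shock list the 3 medians were -0.74, -0.24 and -0.83, and for the keratinocyte list, fitted values of genes at 0 included, 7.80, 2.49 and 4.68. The lists of autophagy genes, of the insulin-like growth factor axis and of mitochondrially encoded respiratory genes had 0 of 19, 0 of 12 and 0 of 13 called between restricted and young mice by edgeR, with 1 higher and 1 lower, 1 higher and 1 lower, and 1 lower at an unadjusted p under 0.05, and 0 called by DESeq2.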

How the data were processed

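RNA from the CD8a bead-bound tumour cells of 9 samples was measured with QuantSeq 3′ libraries and single reads of 75 bases, per the labels' protocols. The tools STAR, featureCounts and Trim Galore and the builds GRCm38 and mm10 are listed per the submitters' processing notes, with versions not given in the sources used here. The deposited file holds raw counts of reads per gene. How strand, multi-mapped reads and molecular identifiers were treated is not given in the sources used here.

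Between 810662 and 1258575 counts were held by each library, and intervals and floors cover counting error only. Genes with at least 10 counts in 3 or more of 9 libraries were tested with edgeR 4.0.16 in R 4.3.3 (TMM scaling, robust quasi-likelihood F-test, 1 model of 3 groups, 6 residual degrees of freedom, Benjamini-Hochberg adjustment over 8956 genes, threshold 0.05). The script was tested on simulated data. The biological coefficient of variation was 40.3%. A gene with 0 young counts got a lower bound from 3 counts over the group, and one with 1 to 3 counts a ratio with an exact 95% interval. List sums were compared by exact 2-sided permutation. Promoters came from the RefSeq table of GRCm38.p6, and 3′ ends were compared with the reference transcripts to find copies. The alternatives included DESeq2 1.42.0, other scalings and filters, copies summed, and each library left out.

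The 53 gene lists and the members were chosen with earlier results of these data known. Named genes were the 12 called genes that rose most and the 12 that fell most, where groups did not overlap and the higher group averaged at least 10 CPM, up to 3 called genes per list with the smallest p, and 10 T cell genes. Any other gene was named after its values were seen. Some single genes of the lists are counted in them but not reported here.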

Additional observations from a re-analysis of the deposited data

How the results depend on the processing

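The number of genes called, 177 (102 higher and 75 lower), was 115 with library totals alone, 36 of them lower, and 286 without a filter on low counts, 178 of them higher. Without 1 library at a time it ran from 93 to 232, with 58 to 127 higher and 30 to 105 lower. The same omissions gave 2 to 14 macrophage genes, 2 to 6 alternative activation genes, 6 to 13 keratinocyte genes and 3 to 11 ribosomal protein genes. Library totals gave 2 ribosomal protein genes, and with near-identical copies summed, chosen after seeing the data, 2 red blood cell features were called, since 4 globin genes became 2. The summed fibroblast level, -256.4 CPM for restricted minus young, ran from -1283.4 without restricted replicate 2 to 339.5 without restricted replicate 1, and also reversed without restricted replicate 3. DESeq2 called 227 genes. Of the 177 genes, 53 (36 higher, 17 lower) were called under every other setting but that of summed copies. Of 1531 values of the 81 named genes under alternatives, 1397 kept their side of the threshold, 130 were no longer past it and 4 came past it. Of values called in the main fit or in the alternative, 0 reversed their direction. A change of sign in a gene called in neither was counted among the 1397. The fit with a replicate block called 226 genes; the pairing rests on a shared number only, since deviations of same-numbered restricted and young libraries correlated at 0.00263, 0.131 and 0.0675. The causes were not tested.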
